A study of Mus musculus with 120 samples.

Results

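The nuclear genes for the subunits of oxidative phosphorylation were followed across the thalamus of the mouse, in neurons labelled from their projection targets. The genes were chosen by symbol alone, as the Nduf subunits of complex I, Sdha to Sdhd of complex II, the Uqcr genes and Cyc1 of complex III, genes of the Cox5 to Cox8 families of complex IV and most Atp5 genes of complex V. The pattern found 77 of the 16538 genes of the count table: 35 for complex I, 4 for complex II, 9 for complex III, 15 for complex IV and 14 for complex V. Ndufa4 was placed with complex IV, of which it is now held to be a subunit. All 77 passed the filter on low counts.

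The respiratory chain sits in the inner membrane of the mitochondrion. Complexes I and II take electrons from NADH and from succinate, complex III passes them by way of cytochrome c to complex IV, which reduces oxygen, and complex V, the ATP synthase, uses the proton gradient that complexes I, III and IV build up. Neurons draw most of their ATP from this chain, chiefly to pump ions after synaptic and spike activity. Several complex IV subunits exist as isoforms from separate genes, one found widely and another best known from heart and skeletal muscle, Cox6a1 and Cox6a2 among them.

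RNA was sequenced from small pools of labelled neurons picked by hand, 14 to 200 cells to a library with a median of 60.5, in 120 libraries that fall into 24 groups by their titles and represent 22 nuclei, named here by the labels' abbreviations. The tracer was DiI in 92 libraries and a retrograde AAV in 28, of which 19 had rAAV2retro-GFP and 9 had rAAV2retro-tdTom. Striatal injections labelled CL, CM, IMD, PCN, PF, PVT and SPA by AAV, and CM a second time by DiI. DiI in cortex labelled LGd and LP from V1, PO and VB from barrel cortex, AD, AV and LD from Rs, AM, IAD and RE from Cg, MD from lc_Orb, VPMpc from insula, and VA, VL and VM from M1, and 1 AM library was labelled from Cg by AAV. The 20 libraries labelled from M1 also carried an axon label entered as virus_SNr_DCN, and the 14 labelled from V1 one entered as CTB_eyes. The animals were entered as wild type for 119 libraries, and 1 VA library carried another genotype. Recorded ages ran from 55 to 447 with no unit given, and 72 libraries came from males, 47 from females and 1 from both. The 85 animals are not all independent units of the tests, since 44 gave more than 1 library and 13 libraries pooled several animals, so p-values measure the spread between libraries or between nuclei.

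Total counts per library ran from 8159497 to 26444831 with a median of 15571300. Of the uniquely mapped reads, 29.3% to 66.8% were assigned to genes (below, the share of assigned reads). The thalamic projection neuron genes Slc17a6 and Tcf7l2 were high throughout, at no less than 517.8 and 813.3 CPM (the count of a gene scaled to the same total in every library) in any library. Of the markers of other cells, only 1 of 7 astrocyte, 2 of 7 microglial and 1 of 5 inhibitory genes are in the count table. Each of these 3 sums had a median of 0 CPM in both classes of nuclei (striatum-labelled and cortex-labelled), and their highest values were 16.0, 85.0 and 28.6 CPM, all in cortex-labelled libraries. None of the 6 endothelial and blood or 4 habenular markers is in the count table, so those cells were not checked. Oligodendrocyte markers summed to between 10.97 and 60.0 CPM in the 30 striatum-labelled libraries, and to between 0.257 and 3991 CPM in the 90 cortex-labelled ones, with medians of 36.0 and 29.1 CPM. In bulk RNA, fewer cells expressing a gene and less of its RNA per cell cannot be told apart. The libraries were amplified on 14 dates, from 21 April 2015 to 19 April 2016, and 2 of these dates held both striatum-labelled and cortex-labelled nuclei.

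Respiratory chain transcripts were present in every nucleus. Of the 77 genes, 61 had counts in all 120 libraries, and 69 had a mean of at least 5 CPM in each of the 22 nuclei. Levels between genes were compared as the mean CPM over nuclei per kilobase of exon. In complex I, Ndufc2, an accessory subunit of the membrane arm, was highest at 106.8 CPM per kilobase, and Ndufb4, another membrane arm subunit, was lowest at 4.76. Of the 4 subunits of complex II, Sdha, the flavoprotein that oxidises succinate, stood at 105.6 and Sdhb, the iron-sulfur subunit, at 21.8 CPM per kilobase. In complex III the ends were the small subunit Uqcr10 at 149.0 and the core subunit Uqcrc1 at 19.4 CPM per kilobase. In complex IV, Cox8a was highest at 302.4 and Cox6b2, an isoform best known from testis, was lowest at 0.503 CPM per kilobase. In complex V, Atp5b, the catalytic beta subunit, stood at 318.7 CPM per kilobase, the highest of all 77. Atp5l, the g subunit of the membrane part, was lowest at 1.68 CPM per kilobase. These lengths are of all annotated exons joined, and a gene with long, little-used exons falls low on this scale. The kit does not mark strand, so reads of Ndufa2, Atp5d and Atp5l cannot be told from those of genes that overlap them on the other strand (Tmco6, Cbarp and RP23-23P9.5), and reads from pseudogene copies of these small subunits may have been lost or shared.

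Summed over the 77 genes, the chain made up 3564 to 25352 CPM of a library, with a median of 7180. The sum was highest in VL, at 12556 ± 1802 CPM (SD, n = 6), and PVT, at 12188 ± 1228 (SD, n = 3), and lowest in LP, at 4848 ± 568 (SD, n = 9), and VPMpc, at 4706 ± 939 (SD, n = 6). All 6 VL libraries, at 10553 to 15404 CPM, lay above all 9 LP libraries, at 4071 to 5845. In descending order VA at 11625, IMD at 10863, PCN at 10423, CL at 9635, CM by AAV at 9529 and PF at 8872 CPM followed VL and PVT. Then came AD at 8803, VM at 8480, VB at 8062, LD at 7504, AV at 6861, LGd at 6752 and AM by DiI at 6333 CPM. IAD at 5839, RE at 5602, PO at 5512, MD at 5361 and SPA at 5068 CPM came next, above LP and VPMpc. Every group shared part of its range of libraries with the next in this order. The 8 VA libraries had an SD of 6062 CPM, and VA replicate 3 stood at 25352 against 14283 for the next VA library. The same library had the highest sum of oligodendrocyte markers of all 120, 3991 CPM.

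**Figure D1:**
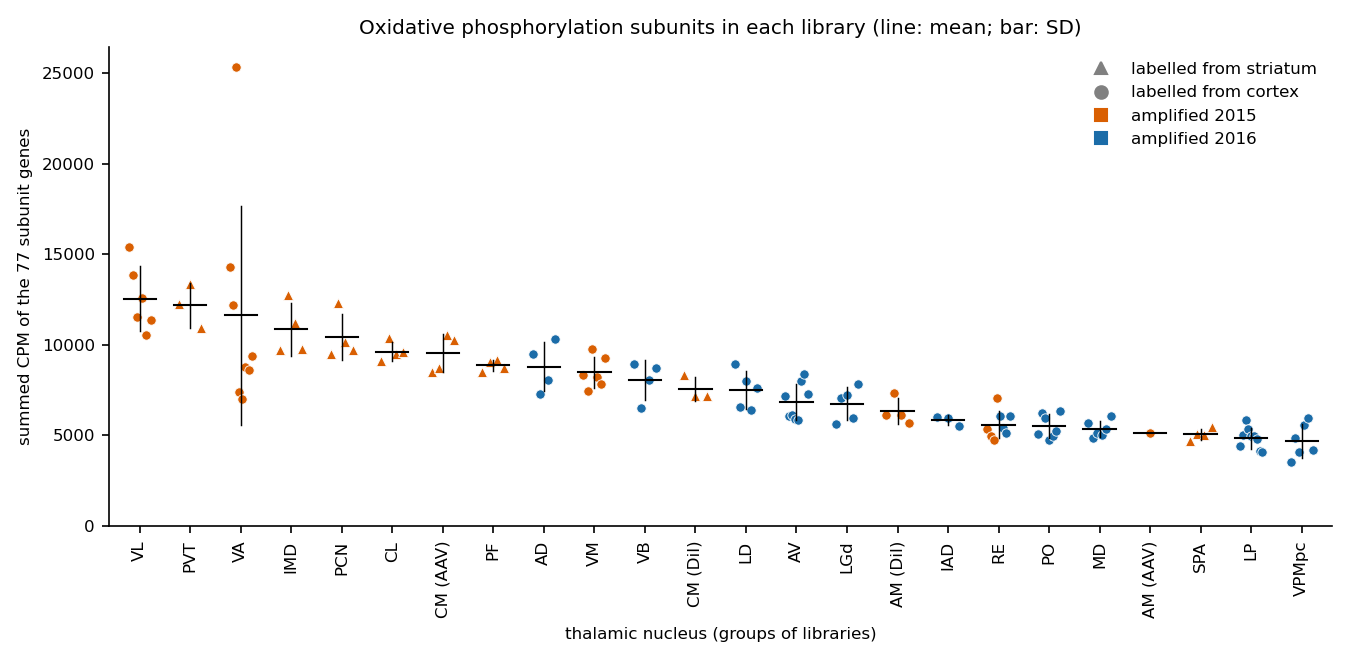
Summed CPM of the 77 subunit genes in each library, by group of library titles in order of the mean. Triangles are striatum-labelled and circles cortex-labelled libraries, orange for 2015 and blue for 2016, and bars show mean and SD. The groups run from VPMpc at 4706 CPM to VL at 12556, the upper groups were made in 2015, and 1 VA library stands at 25352.

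The level of the chain went together with when a library was made. The 59 libraries of 2015 had a median sum of 9107 CPM (4714 to 25352), and the 61 of 2016 a median of 5983 (3564 to 10342). In 2015 the median share of assigned reads was 55.3% and the summed level of cytosolic ribosomal protein genes had a median of 5683 CPM, against 45.8% and 2876 CPM in 2016. Only 9 of the 24 groups were made on more than 1 date. Within VA, 74 of the 77 genes had a lower mean on 6 August 2015 (n = 3) than on 21 April 2015 (n = 3). The median difference was -1.03 (log2), where the median of all genes was 0 and 44.9% of all genes were lower. From 6 August to 1 September 2015 (n = 2), 60 were lower in VA, with a median of -0.35 (50.7% of all genes lower). Within VL 63 were lower on 6 August than on 21 April 2015, with a median of -0.40 (44.8% of all genes lower). Within VPMpc 53 were lower in April 2016 than in February 2016, also with a median of -0.40 (51.8% of all genes lower). In AV 52 were higher on the later date, with a median of 0.25, where 50.5% of all genes were lower. LD, LP, PO, RE and VM had medians between -0.12 and -0.01. Where 2 nuclei share no date, nucleus and date cannot be told apart.

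Levels of the genes of the chain mostly ran parallel over the nuclei. Across the 22 nuclear means, a gene's log2 level had a median Pearson r of 0.885 with the mean of the other 76, and 70 of the 77 were above 0.5. Atp5k, the e subunit of ATP synthase, was the closest at 0.958, and Atp5l at -0.22 and Cox6a2 at -0.02 were the only members below 0. Ndufs1 at 0.05, Ndufa10 at 0.16 and Cox6b2 at 0.17 came next above them. Over the 120 libraries the sum had a Spearman rho of 0.904 with that of 16 glycolysis genes, 0.743 with ribosomal proteins, 0.653 with the share of assigned reads and 0.613 with 17 genes of the citric acid cycle. It was 0.537 with the total count of a library, 0.105 with the number of genes detected and -0.25 with the number of cells picked. These points share libraries, animals and dates, and the correlations only describe the set.

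Nearly all members differed among the 22 nuclei. In edgeR's quasi-likelihood F test over 16527 genes, 72 of the 77 were called (adjusted p under 0.05), where 55.1% of all genes were called. By complex these were 34 of 35 genes for complex I, all 4 for complex II, 7 of 9 for complex III, 14 of 15 for complex IV and 13 of 14 for complex V. Ndufa6, Uqcrc2, Uqcrfs1, Cox7b2 and Atp5l were not called. With the amplification date as a term, the test covered only differences between groups linked by shared dates. Differences between sets of nuclei that share no date went to the date terms and were not tested. In this narrower test 18 of the 77 were called, where 24.6% of all genes were, and all 18 were among the 72. These were 6 genes of complex I (Ndufa1, Ndufa10, Ndufb8, Ndufc1, Ndufs3 and Ndufv2), Uqcrc1 of complex III, 3 of complex V (Atp5a1, Atp5b and Atp5g3) and 8 of complex IV. The complex IV genes were Cox5a, Cox6a1, Cox6a2, Cox6b2, Cox7a1, Cox7b, Cox8a and Ndufa4. The share of members called was thus above that of all genes without date and about the same with date, in tests that ask different questions.

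The 10 largest F values belonged to 2 genes of complex I, 1 of complex III, 2 of complex IV and 5 of complex V. Cox6a1, the widely found isoform of subunit 6a, had an F of 14.3 (edgeR, adjusted p = 5.43e-21) and mean levels from 66.5 CPM in LP to 363.6 in PVT. The 9 LP libraries stood between 34.0 and 94.0 CPM with a median of 70.8, and the 3 PVT libraries at 336.4, 342.1 and 412.4, with no overlap. Atp5d, the delta subunit of the rotating stalk of ATP synthase, ran from 42.5 CPM in LP to 253.5 in VL. Atp5g1 and Atp5g3, which encode its ring, ran from 76.0 CPM in LP to 289.2 in VL and from 40.9 in VPMpc to 306.3 in PVT. Atp5a1 and Atp5b, the alpha and beta subunits of the catalytic head, had their lowest means in SPA, at 327.5 and 758.8 CPM, and their highest in VL, at 981.9 and 2015. Ndufb5 and Ndufa13, accessory subunits of complex I, ran from 22.1 and 33.1 CPM in VPMpc to 195.7 and 206.8 in PVT. Uqcr10 ran from 17.1 CPM in VPMpc to 185.6 in PVT, and Ndufa4 from 76.3 in LP to 360.9 in VL. In the narrower test with date in the fit, Atp5d, Atp5g1, Ndufb5, Ndufa13 and Uqcr10 were not called (edgeR, adjusted p = 0.235, 0.17, 0.0609, 0.284 and 0.0562).

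**Figure D2:**
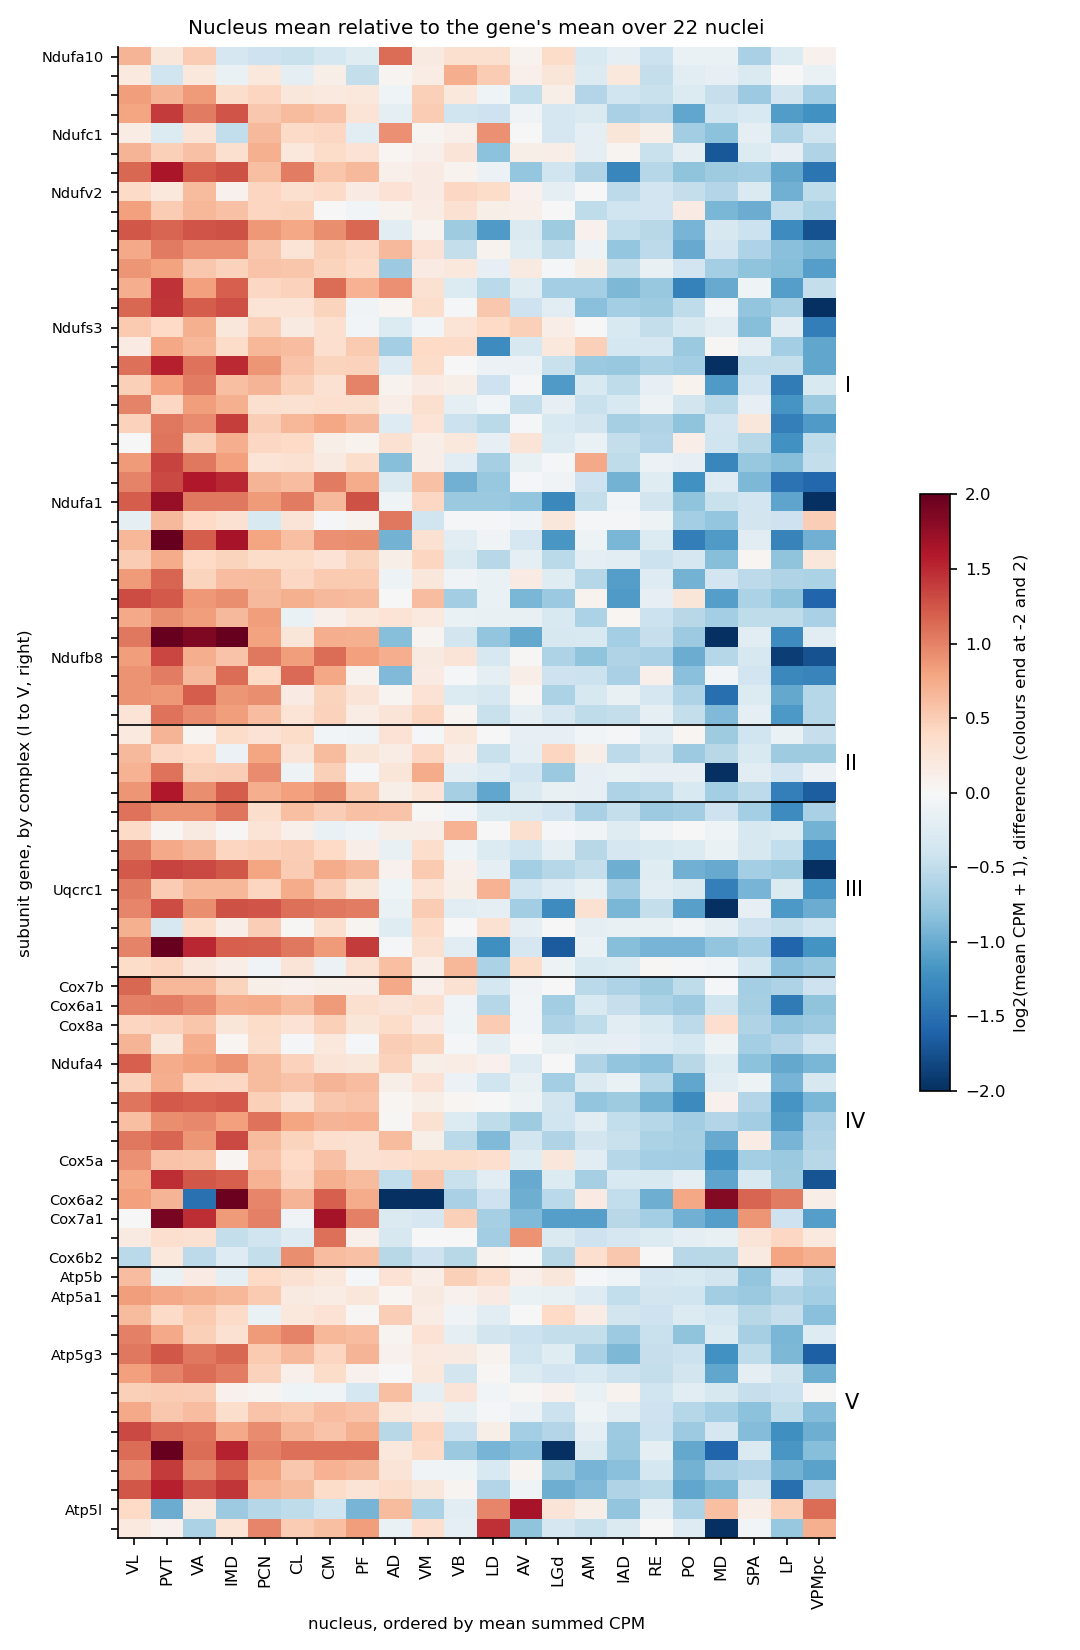
Mean log2 level of each of the 77 genes in each of 22 nuclei, relative to the gene's mean over nuclei, with genes in rows by complex and colours that end at -2 and 2. Names mark the 18 genes called with date in the fit, and Atp5l. Most rows share one pattern, high in VL, PVT, VA and IMD and low in LP and VPMpc, and the rows of Cox6a2 and Atp5l are among those that do not follow it.

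Sequence upstream of 4 members is printed because their levels carry the comparisons that follow. Cox6a1 had the largest F over the 22 nuclei, and Atp5b, Ndufa4 and Ndufa10 were called with date in the fit. Each run ends at the base before the first transcribed base, is on the gene's strand, and comes from RefSeq for GRCm38.p6, the mm10 build. Capitals mark matches on either strand to 6 motifs known from promoters of respiratory or other widely expressed genes, spelled out after the sequences.
Cox6a1, chr5:115348982-115349208, minus strand: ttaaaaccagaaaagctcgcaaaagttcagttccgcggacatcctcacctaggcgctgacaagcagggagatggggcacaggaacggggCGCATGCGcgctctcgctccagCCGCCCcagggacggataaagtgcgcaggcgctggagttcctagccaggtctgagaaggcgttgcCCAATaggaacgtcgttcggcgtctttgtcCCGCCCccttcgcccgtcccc
Atp5b, chr10:128083057-128083272, plus strand: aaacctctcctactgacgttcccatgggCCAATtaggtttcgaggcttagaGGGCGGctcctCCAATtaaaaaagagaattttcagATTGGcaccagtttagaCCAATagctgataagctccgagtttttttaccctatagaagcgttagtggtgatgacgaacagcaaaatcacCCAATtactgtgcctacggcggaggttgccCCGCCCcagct
Ndufa4, chr6:11907498-11907700, minus strand: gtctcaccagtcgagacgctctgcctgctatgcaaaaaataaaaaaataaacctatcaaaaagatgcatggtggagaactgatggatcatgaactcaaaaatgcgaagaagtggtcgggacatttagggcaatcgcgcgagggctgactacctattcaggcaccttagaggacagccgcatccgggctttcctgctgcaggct
Ndufa10, chr1:92473861-92474008, minus strand: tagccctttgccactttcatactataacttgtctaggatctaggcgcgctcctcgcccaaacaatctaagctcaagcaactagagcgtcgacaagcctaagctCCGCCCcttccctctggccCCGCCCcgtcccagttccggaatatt

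The Cox6a1 run holds NRF1, SP1 and CCAAT letters, the Atp5b run CCAAT and SP1 letters, the Ndufa10 run SP1 letters, and the Ndufa4 run none of the 6. RefSeq promoters were found for 64 of the 77 genes, and the share holding each motif was taken in the 250 bases before the RefSeq start on both strands. NRF1, searched as CGCATGCG, was in 6 of the 64 (Atp5g2, Atp5k, Atp5l, Cox6a1, Ndufa11 and Ndufa8), or 9.38%, and in 1.58% of 27025 promoters. The ETS motif, searched as CCGGAAG, was in 17.2% of the members, Cox6a1 among them, and 7.05% of all promoters. CRE, searched as TGACGTCA, was in 6.25% of the members, Ndufa10 among them, and 1.62% of all promoters. The printed runs of Cox6a1 and Ndufa10 are shorter than the 250 bases counted and do not show these letters. The ERR motif, searched as AAGGTCA, was in 7.81% and 4.05%. SP1, searched as GGGCGG, was in 35.9% of the members and 32.9% of all promoters. The letters CCAAT were in 45.3% and 34.5%. None of these motifs contains another. A match describes the letters and not a bound site.

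Cox6a2 was among the members that departed from most of the chain. Cox6a2 (ENSMUSG00000030785.8, mm10 chr7:128205435-128206387, minus strand) encodes the isoform of complex IV subunit 6a best known from heart and skeletal muscle. Its mean ran from 1.24 CPM in AD to 95.1 ± 15.9 (SD, n = 4) in IMD. The 4 IMD libraries stood at 71.9, 98.1, 104.1 and 106.5 CPM, and the 4 AD libraries at 0, 0, 0.414 and 4.56, with no overlap. VM was also near 0, with libraries from 0 to 8.24 CPM and a median of 0.616, and VA ran from 0.0655 to 25.3 CPM with a median of 4.62. No Cox6a2 read was counted in 3 libraries, 2 of AD and 1 of VM, where a count of 0 allows for up to 0.341, 0.248 and 0.13 CPM (3 counts of the total, counting error only).

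Next to IMD stood MD at 87.2 ± 73.6 CPM (SD, n = 6), with libraries from 3.01 to 208.1, so that the 2 overlapped. CM by AAV at 55.6, SPA at 54.2, LP at 49.9, PCN at 47.9, VL at 42.6, PO at 41.0, PF at 40.1, PVT at 38.8 and CL at 38.5 CPM formed the middle of the order, and each overlapped the next. Every SPA library, at 46.1 to 72.4 CPM, lay above every PVT library, at 34.6 to 43.0, and every CL library, at 32.6 to 45.4. AM by DiI at 26.7, VPMpc at 26.0, LD at 17.5, IAD at 16.5, LGd at 16.1, VB at 14.7, AV at 11.6, RE at 11.5 and VA at 7.82 CPM followed. In the test with date in the fit, over nuclei linked by shared dates, Cox6a2 had the largest F of the 77, 5.43 (edgeR, adjusted p = 2.77e-07). In the test of all nuclei without date its F was 6.08. Per kilobase of exon, Cox6a2 gave 43.9% ± 10.1 (SD, n = 9) of the pair Cox6a1 and Cox6a2 in LP, 35.4% ± 23.1 (SD, n = 6) in MD and 33.2% ± 2.8 (SD, n = 4) in SPA. It gave 0.537% in AD and 0.946% in VM. In LP and SPA the high share went with low Cox6a1, at 66.5 and 112.0 CPM, and in IMD, where Cox6a1 stood at 296.1 CPM, Cox6a2 gave 25.0%.

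**Figure D3:**
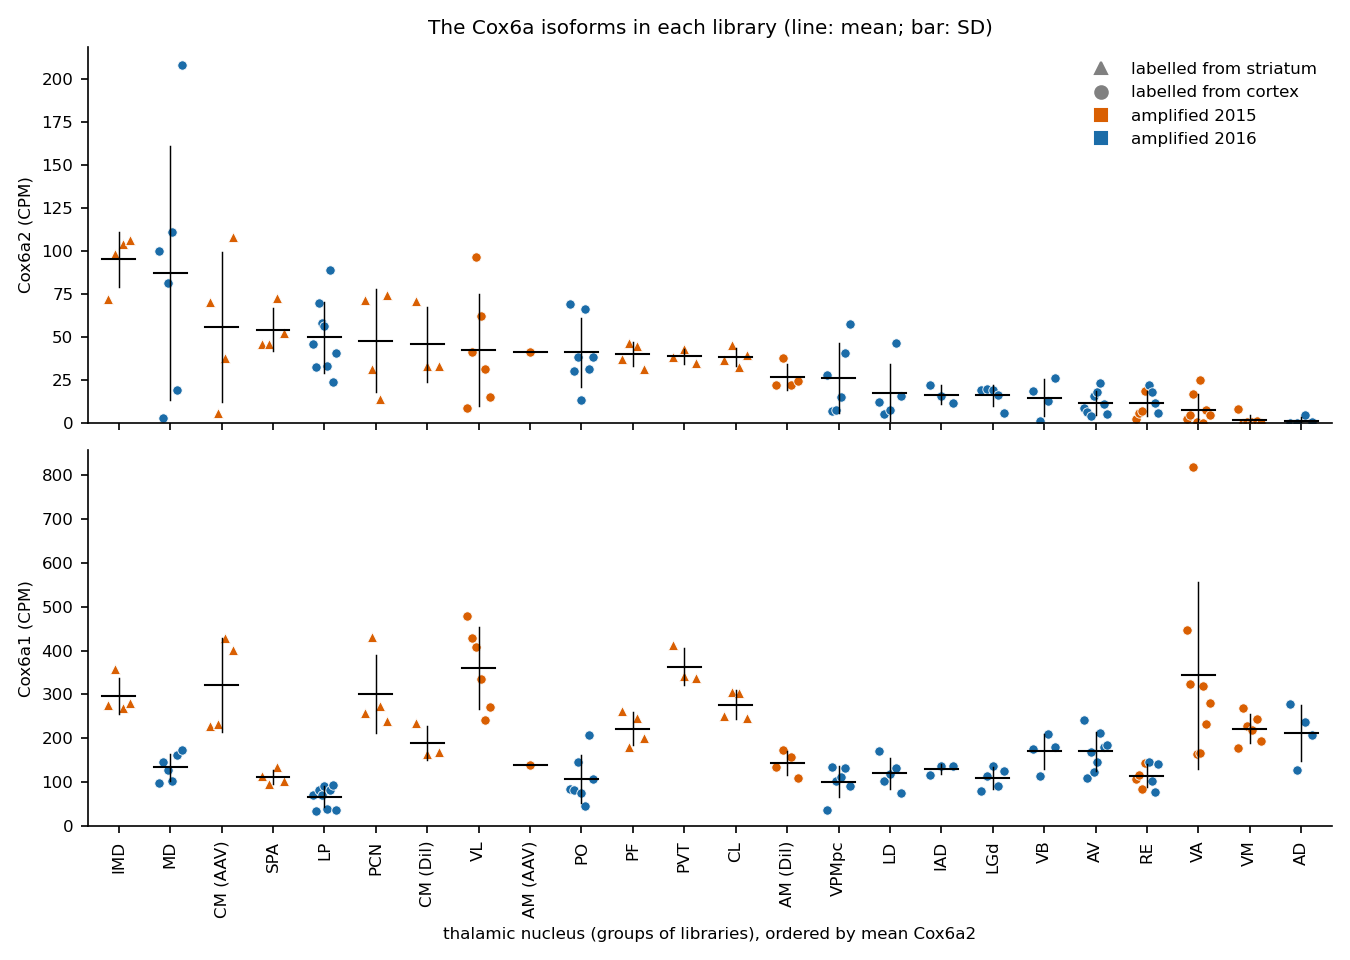
Cox6a1 and Cox6a2 CPM in each library by group, triangles for striatum-labelled and circles for cortex-labelled nuclei, orange for 2015 and blue for 2016, with the mean and SD of each group. Cox6a2 lies near 0 in AD and VM and is highest in IMD and MD, in an order unlike that of Cox6a1, which runs from LP at 66.5 CPM to PVT at 363.6.

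In subunits 7a and 6b of complex IV 1 isoform was far above the other. Cox7a2, the widely found isoform of subunit 7a, averaged 96.4 CPM over nuclei, and Cox7a1, its muscle counterpart, 1.72 CPM with no count in 54 of 120 libraries. Cox6b1 averaged 152.5 CPM and Cox6b2 0.557 CPM, with no count in 87 libraries. Cox8a averaged 187.2 CPM, and Cox8b was not analysed here. Atp5g1, Atp5g2 and Atp5g3 encode one and the same mature c subunit of the ATP synthase ring from 3 genes. They averaged 156.9, 7.89 and 149.1 CPM, so that 2 of the 3 stood at about the same level. Atp5g2 was highest in LD, at 20.9 CPM, and lowest in MD, at 0.827.

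Striatum-labelled nuclei had higher counts of many members than cortex-labelled ones when all dates were used. With counts summed per nucleus, 7 sums against 15, 27 of the 77 were called higher and 1 lower, where 8.58% of all genes were called higher and 9.80% lower (edgeR). The median member difference was 0.64 (log2, striatum minus cortex) against -0.08 for all genes, and 72 members were above 0. Those called higher were 16 of complex I, 1 of complex II, 2 of complex III, 5 of complex IV and 3 of complex V. Without VA replicate 3 the calls were 37 higher and 1 lower (9.27% and 10.1% of all genes). Without IMD or without PVT 13 were higher (5.77% and 5.67% of all genes). Cytosolic ribosomal protein genes moved with this result, with 77 of 80 called higher and a median difference of 1.27, and their part in it was not tested. All 7 striatum-labelled sums came from AAV libraries and all 15 others from DiI, so class and tracer cannot be told apart. Sex was uneven too. CL, IMD, PF, PVT and SPA were all female, and CM and PCN came from both sexes. Of the cortex-labelled nuclei, VB, LP, LGd, PO, MD, LD, AV and AD were all male. AM was all female, and the rest came from both sexes. The parts of tracer and sex in the class difference were not tested.

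By size, the leading member was Atp5e, the epsilon subunit of the stalk of ATP synthase. It stood at 127.8 ± 53.9 CPM over the 7 nuclei and 45.1 ± 32.4 (SD) over the 15, a difference of 1.5 ± 0.35 (SE, log2; edgeR, adjusted p = 0.00414). Uqcr11 and Uqcrq, small subunits of complex III, differed by 1.45 and 1.31 (edgeR, adjusted p = 0.00961 and 0.00716). Among accessory subunits of complex I, Ndufa2 stood at 69.4 ± 34.3 against 25.6 ± 16.8 CPM (SD), a difference of 1.44, Ndufb7 differed by 1.34, and Ndufa1 by 1.24. Ndufv3, a small subunit of the NADH-oxidising arm, stood at 75.0 ± 20.9 against 34.7 ± 16.3 CPM (SD), a difference of 1.11 ± 0.24 (SE, log2; edgeR, adjusted p = 0.00249). Sdhb stood at 78.1 ± 30.7 against 36.3 ± 20.04 CPM (SD), also a difference of 1.11. The one called lower was Atp5l, at 6.51 ± 2.14 against 12.05 ± 5.58 CPM (SD; -0.89, edgeR, adjusted p = 0.0429). Atp5l was not called when AD, AV, CL, CM, IMD, LD, LGd, LP, PCN, PF, PVT or VPMpc was left out. Cox6a2 was at 55.4 against 24.7 CPM and was not called (1.17, edgeR, adjusted p = 0.0913).

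Within the 2 dates that held both classes, the direction was the opposite. With counts summed per nucleus and date, and date as a block, 0 members were called higher and 2 lower, where 2.49% of all genes were called higher and 3.47% lower (edgeR). An unadjusted p under 0.05 was found for 33 members. Here and below, counts at an unadjusted p are given without the share of all genes at that cut-off and cannot be read against it. The median member difference was -0.44 against 0.01 for all genes, and 70 of the 77 were below 0. Among them was Ndufs4, an accessory subunit of the arm of complex I that reaches into the matrix, at -0.76 (edgeR, adjusted p = 0.0456). Of the 27 genes called higher over all dates, 3 kept a positive value here (Ndufv3 at 0.14, Ndufb3 at 0.05 and Ndufa6 near 0), none of them called. Ndufa2 was at -0.05, Atp5e at -0.20 and Ndufa1 at -0.68. Without VA replicate 3, 0 members were higher and 1 lower, with a median of -0.36 and 67 members below 0. These dates compare 3 nuclei, PVT, IMD and CM, with 3 labelled from M1, VA, VL and VM, so they do not stand for all of either class. VA and VL were on both dates and entered with a sum for each. The p-values of this fit therefore treat sums of the same nucleus as separate units.

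Each of the 2 dates could be taken alone. On 21 April 2015, PVT and IMD against VA and VL, 1 member was called higher and 6 lower, where 6.03% of all genes were higher and 5.57% lower (edgeR). Cox6a2 was the higher one, at 2.13 (adjusted p = 0.00533), and Cox7c, Ndufa10, Ndufa4, Atp5b and Atp5a1 were among those lower, with log2 values from -0.82 to -0.49. The Cox6a2 libraries stood at 34.6 to 43.0 CPM in PVT and 71.9 to 106.5 in IMD, and at 2.59, 4.65 and 17.0 in VA and 8.62 and 41.5 in VL, so that only 1 VL library reached those of PVT. The tracer differed here as well, AAV against DiI. Without VA replicate 3 the counts were 1 higher and 7 lower.

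On 6 August 2015 all libraries had DiI, and CM was set against VA, VL and VM. Again Cox6a2 was the 1 member called higher, at 3.18 (edgeR, adjusted p = 0.00324), and 2 were lower, Uqcr10 at -0.95 and Atp5g1, of the ATP synthase ring, at -0.73, where 2.72% of all genes were higher and 2.21% lower. The 3 CM libraries stood at 32.9, 33.3 and 70.9 CPM of Cox6a2, the 4 VM libraries of that date at 0.264 to 0.934, the 3 VA libraries at 0.0655 to 7.6 and the 4 VL libraries at 15.04 to 96.5. CM therefore lay above VM and VA and inside the range of VL.

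**Figure D4:**
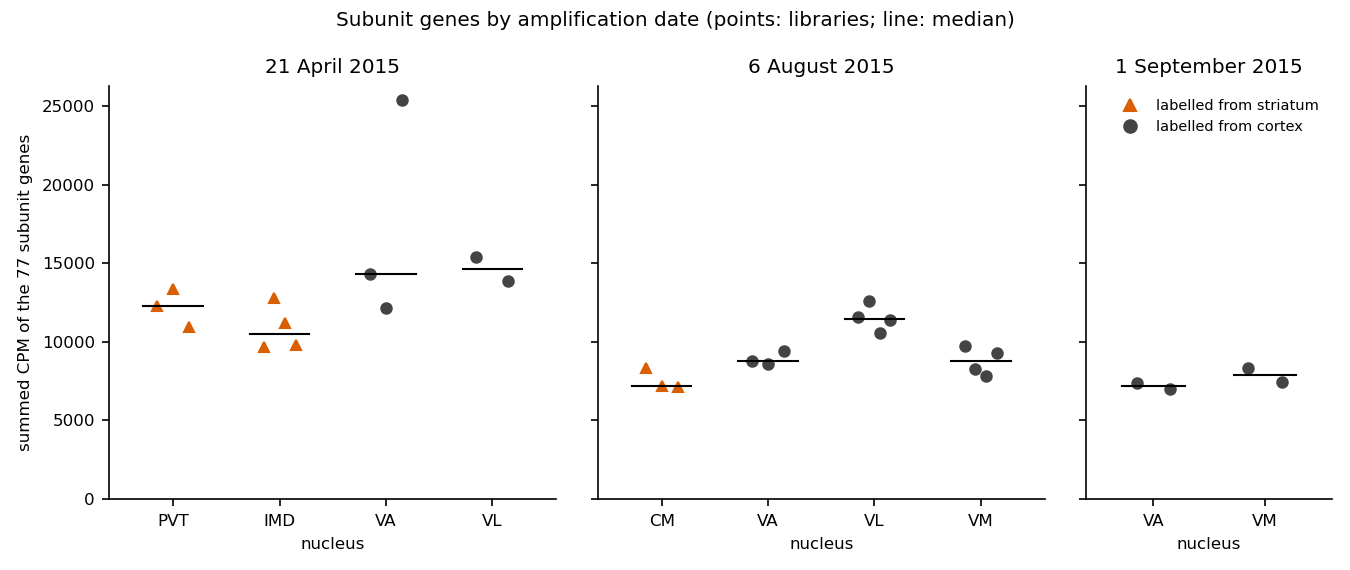
Summed CPM of the 77 genes in single libraries of 3 dates in 2015 (21 April, 6 August and 1 September), by nucleus, with triangles for striatum-labelled and circles for cortex-labelled nuclei and lines at the group medians. On 21 April and 6 August every VL library lies above the PVT, IMD or CM libraries of the same date, and VA falls from 1 date to the next.

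**Figure D5:**
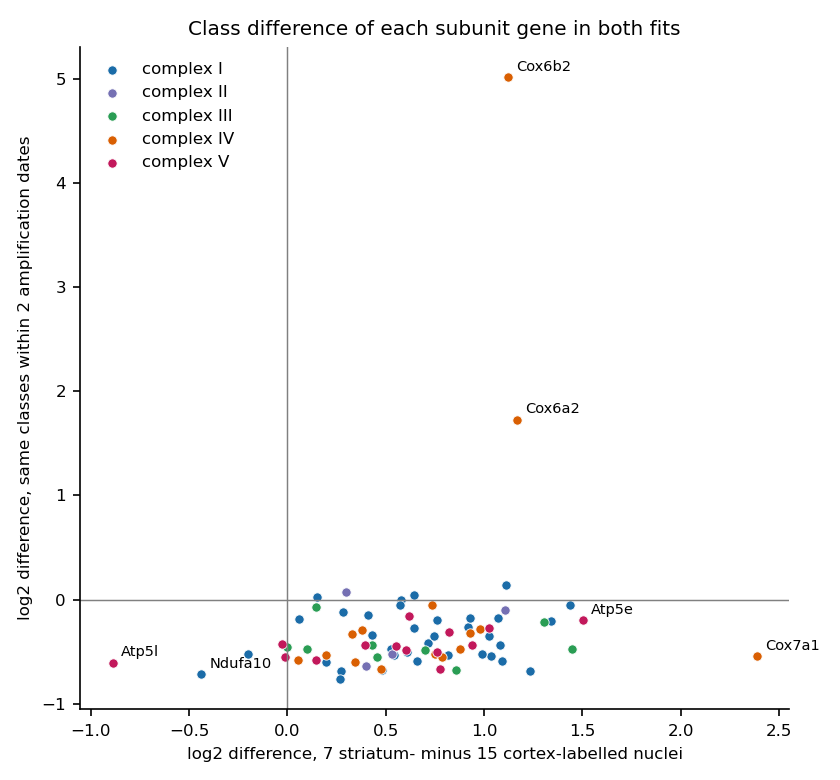
Each of the 77 genes by its log2 difference between 7 striatum-labelled and 15 cortex-labelled nuclei over all dates (x axis) and within the 2 dates that held both classes (y axis). Of the points, 72 lie above 0 on the x axis and 70 below 0 on the y axis.

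Against the mean of the other 21 nuclei, the genes of the chain were called higher 184 times and lower 152 times over the 22 contrasts, all from one fit (edgeR). Without VA replicate 3 these totals were 154 and 158. Date could not be entered here, because some sets of nuclei share no date with the others, and between such sets nucleus and date cannot be told apart. In VL 39 members were higher and 0 lower, where 7.93% and 3.06% of all genes were, led by Ndufs8 at 1.41, Atp5d at 1.39 and Atp5k at 1.33. In PVT 31 were higher and 0 lower (7.35% and 3.95% of all genes), led by Cox7a1 at 4.08, Ndufb7 at 2.35 and Uqcr11 at 2.24. In IMD 29 were higher and 0 lower (8.48% and 4.53% of all genes), led by Cox7a1 at 2.74, Ndufb7 at 2.27 and Cox6a2 at 2.16. Cox7a1 is a low gene, at a mean of 6.96 CPM in PVT, and its log2 values rest on few reads in the other nuclei. In VA 53 were higher and Cox6a2, at -1.61, lower, where 10.9% and 1.28% of all genes were, and without replicate 3 of VA 11 were higher and 1 lower (7.11% and 0.762% of all genes).

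At the other end, LP had 46 members lower, where 2.68% of all genes were lower, led by Ndufb8 at -2.14, Uqcr11 at -1.75 and Atp5k at -1.63. Cox6b2 at 3.37 and Cox6a2 at 1.19 were the 2 members higher in LP (14.7% of all genes were higher). Cox6b2 averaged 0.557 CPM over nuclei with no count in 87 libraries, so its log2 values here and in VPMpc rest on few reads. VPMpc had 34 members lower and 1 higher, where 5.66% and 18.8% of all genes were, led by Ndufa1 at -2.27, Ndufb9 at -2.20 and Uqcr10 at -2.17, with Cox6b2 higher. MD had 26 lower and 1 higher (7.96% and 23.6% of all genes), led by Atp5g2 at -3.13, Ndufb7 at -2.96 and Uqcrq at -2.71, while Cox6a2 was higher by 2.03. PO had 18 lower (1.97% of all genes), among them Ndufa2 at -1.52, Ndufa3 at -1.46 and Cox6c at -1.36. RE had 10 lower (2.92%), led by Cox6c at -1.0, Ndufa4 at -0.88 and Uqcrh, the hinge protein of complex III, at -0.77. SPA, the striatum-labelled nucleus with the lowest sum, had 6 lower and 1 higher (2.34% and 7.13% of all genes), with Ndufs4 at -1.07, Ndufa4 at -0.86 and Atp5b at -0.83. SPA was amplified on 1 date alone, with no library of another nucleus.

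The remaining nuclei had few calls. AD had 4 higher and 1 lower (9.02% and 4.09% of all genes), with Ndufa10 at 1.18, Ndufb2 at 1.13 and Ndufc1 at 0.97, and Cox6a2 at -4.35. VM had 1 lower (0.623% of all genes), Cox6a2 at -3.85. AV had 1 higher and 3 lower (15.8% and 4.22%), Atp5l at 1.86 and Ndufb5, Cox7a2 and Atp5d at -0.82 to -0.72. LGd had 4 lower and 0 higher (2.28% and 7.15%), led by Atp5e at -2.21 and Uqcr11 at -1.83. LD had 3 higher and 2 lower (11.9% and 2.75%), with Atp5g2 at 1.72 and Ndufb3 at -1.36. VB had 3 higher (7.62%), Ndufs1 at 0.77, the core protein Uqcrc2 at 0.74 and Atp5b at 0.49. PCN had 6 higher and 0 lower (4.01% and 0.841%), CM 5 higher (4.76%), CL 3 (3.63%) and PF 2 (3.59%), and Cox7a1 was the largest in PCN, CM and PF, at 2.96 to 3.81. AM and IAD had none (5.14% and 2.94% of all genes were higher there, 0.381% and 0.109% lower).

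LP and LGd were both labelled from V1. In LP, 0 members were higher and 3 lower than in LGd, where 2.23% of all genes were higher and 1.39% lower (edgeR), and the median member difference was -0.46 against 0.10 for all genes. Ndufa4 stood at 58.1 to 93.5 CPM in the 9 LP libraries, with a median of 78.9, and at 109.9, 121.4, 175.1, 176.1 and 196.5 in the 5 LGd libraries. The groups did not overlap, and the difference was -1.03 ± 0.28 (SE, log2; edgeR, adjusted p = 0.0178). Atp5b, at 1010 ± 194 against 1533 ± 282 CPM (SD), differed by -0.60 (adjusted p = 0.0161), and Atp5c1, the gamma subunit of the rotor, by -0.85 (adjusted p = 0.0473), both with overlap of libraries. On the one date the groups shared, 7 LP and 5 LGd libraries, 5 members were lower, where 2.15% of all genes were, these 3 with Ndufa10 and Cox5a. Cox6a2 was higher there, where 3.24% of all genes were, at 52.9 ± 22.4 against 16.1 ± 5.9 CPM (SD; 1.72, edgeR, adjusted p = 0.0141). The 3 calls over all libraries became 1 without LGd replicate 2 or LGd replicate 3, and 0 without LGd replicate 5.

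PO and VB were both labelled from barrel cortex. Here 1 member was lower in PO and 0 higher, where 1.05% and 1.60% of all genes were, and the median member difference was -0.48 (0.07 for all genes). Atp5b stood at 796.5 to 1434 CPM in the 7 PO libraries, with a median of 1020, and at 945.3 to 2400 in the 4 VB libraries, with a median of 1965. These ranges overlap by 1 VB library, and the difference was -0.78 ± 0.18 (SE, log2; edgeR, adjusted p = 0.00389). On the shared date alone Atp5b differed by -0.73 and edgeR called 0 members (0.386% of all genes lower), with 14 at an unadjusted p under 0.05. DESeq2 called 5 lower over all libraries (2.01% of all genes). Without PO replicate 3 or PO replicate 7 the lower calls were 3.

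VM and VL, both labelled from M1, differed most in Cox6a2. With VM set against VL 3 members were lower and 0 higher, where 0.478% and 1.22% of all genes were, and the median member difference was -0.61 (0.00 for all genes). Cox6a2 stood at 0, 0.264, 0.338, 0.893, 0.934 and 8.24 CPM in VM and at 8.62, 15.04, 31.6, 41.5, 62.1 and 96.5 in VL. Every VM library lay below every VL library, and the difference was -4.57 ± 0.83 (SE, log2; edgeR, adjusted p = 7.98e-05). On the shared date it was -6.38, at 0.607 ± 0.355 against 51.3 ± 35.9 CPM (SD, n = 4 each), and in the 3 animals that gave both nuclei it was -5.64, with the animal as a block. Ndufa4 differed by -1.08, with no overlap, and Cox7b, a small subunit of complex IV, by -1.05, with overlap (edgeR, adjusted p = 0.0378 and 0.0154), and neither was called on the shared date or in the shared animals. There Cox7b differed by -1.06 and -1.15, about as over all libraries, and Ndufa4 by -0.65 and -0.61. The 3 calls became 1 without VM replicate 1, VM replicate 5 or VL replicate 4.

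AD and AV, both labelled from Rs, differed in 1 member in each direction, where 2.79% of all genes were higher in AD and 2.90% lower, and the median member difference was 0.32 (-0.08 for all genes). Ndufa10, an accessory subunit of complex I, stood at 368.0, 477.1, 515.6 and 637.7 CPM in AD and at 115.3 to 344.7 in the 8 AV libraries, with a median of 227.1. The groups did not overlap, and the difference was 1.06 ± 0.23 (SE, log2; edgeR, adjusted p = 0.000735). In the animals that gave both nuclei it was 1.28 (adjusted p = 0.0125), with Ndufa3 also called. On the shared date alone edgeR called 0 members (1.17% of all genes higher, 1.71% lower), with 7 at an unadjusted p under 0.05, and the differences were 1.08 for Ndufa10 and -3.11 for Cox6a2. Cox6a2 was lower in AD by -3.18 (edgeR, adjusted p = 0.0177), with 1 AD library, at 4.56 CPM, above the lowest AV library, at 4.09, and was not called without AD replicate 1, 2 or 4. In the animals that gave both nuclei, with the animal as a block, Cox6a2 differed by -6.34 and was not called.

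Within the striatum-labelled nuclei, 3 comparisons gave no calls of members in the fit of all libraries. Set against CL, PCN and CM, PF had 0 members called (0.0484% of all genes higher, 0.0121% lower), with a median difference of -0.11 and 0 members at an unadjusted p under 0.05 (edgeR). PVT, amplified on another date than those 3, had 0 called (1.21% and 0.968%), 6 at an unadjusted p under 0.05, and a median of 0.41. In a fit of those 4 groups alone 17 were higher in PVT and Atp5b was lower, where 4.11% of all genes were higher and 3.25% lower. CM labelled by AAV against CM labelled by DiI, also from other dates, had 0 called (0% and 0.00605% of all genes), 4 at an unadjusted p under 0.05, and a median of 0.44. DESeq2 also called 0 members in these 3 comparisons, with 0, 7 and 4 at an unadjusted p under 0.05.

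Related gene lists were counted in the same fits, and the shares of all genes given above for each fit are those to set beside these counts. Of 41 assembly factors of the complexes tested, 9 differed among the 22 nuclei (55.1% of all genes), and 6 in the narrower test with date in the fit. Of 17 citric acid cycle genes 16 differed and 10 with date, of 16 glycolysis genes 16 and 6, of 80 ribosomal protein genes 73 and 2, and of 12 regulators of mitochondrial biogenesis 5 and 2. Between the classes over all dates, 6 assembly factors were higher and 2 (Ttc19 and Atpaf1) lower, with a median of 0.22. In the citric acid cycle Mdh2 was higher and 3 genes of the pyruvate dehydrogenase complex, Dld, Pdhb and Dlat, lower. In glycolysis 5 were higher and 0 lower, with a median of 0.48. Within the 2 shared dates the medians were -0.26, -0.50 and -0.31 for the 3 lists, and 0.31 for ribosomal proteins, of which 0 were then called. Of 7 further subunits or partners that the symbol pattern leaves out, 4 (Cox4i1, Atp5o, Atpif1 and Usmg5) were higher over all dates and 0 within the shared ones.

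Of the regulators, Esrrg, a nuclear receptor that drives genes of oxidative metabolism, stood at 4.12 ± 4.43 CPM over the 7 striatum-labelled nuclei and 83.6 ± 49.3 (SD) over the 15 others, a difference of -4.34 (edgeR, adjusted p = 0.000289). It was lower within the shared dates as well, by -4.85 (adjusted p = 0.04). Ppargc1a, the coactivator PGC-1alpha, ran from 36.0 CPM in RE to 742.5 in VB. It was called over the 22 nuclei and in the narrower test with date, but not between the classes (-0.63, edgeR, adjusted p = 0.344). Of the 9 oligodendrocyte markers tested, 6 were lower in the striatum-labelled nuclei, and 4 within the shared dates. By library their sum had a higher median in striatum-labelled (36.0 CPM) than in cortex-labelled libraries (29.1 CPM). The highest cortex-labelled library, VA replicate 3 at 3991 CPM, was included in these tests. What part these markers had in the members' differences was not tested.

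Over the 22 nuclear means and 9789 genes, the genes whose log2 levels were most like those of Ndufv3 were Mif (Pearson r = 0.952), Atp5o (0.947), Chchd2 (0.946), Eif6 (0.945) and Glo1 (0.933). For Cox6a2 they were Tcf3 (0.773), Igf1 (0.759), Frrs1 (0.740), Matr3 (0.728) and Dock9 (0.726). These nuclei share libraries and dates, and the values are descriptive.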

How the data were processed

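Raw whole-number counts per gene, as deposited by the authors, were available for 120 libraries, with a second deposited table of library facts (tracer, target, animal, amplification date, number of cells). Per the submitters' processing notes, reads were trimmed with cutadapt 1.16, aligned to mm10 with STAR 2.5.3a and counted with featureCounts 1.52. The amplification kit does not mark strand. In the count table libraries are rows and genes are columns, and every row matched a library by its title.

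Members were chosen by symbol. The members and all gene lists were chosen with earlier results of these data known. Genes were named by rule: Ndufv3, Ndufa2 and Cox6a2, the 10 largest F values over nuclei, the 8 largest called changes in each direction between classes and the 3 largest in other contrasts, the ends of each complex by CPM per kilobase, and isoform pairs. Some further members, such as those called with date in the fit, were named after their values were seen. The values of 1 member are not reported here.

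edgeR 4.0.16 (R 4.3.3; TMM, filterByExpr with a minimum count of 10) was fitted once to all 120 libraries with 24 group terms, leaving 16527 genes. Classes were compared on counts summed per nucleus, 7 against 15. P-values were Benjamini-Hochberg adjusted over all genes, two-sided, and called under 0.05. Counts of members at an unadjusted p under 0.05 are not calls, and the share of all genes at that cut-off is not given. Log2 differences are fitted values, CPM is scaled by a library's total count, and nuclear means took CM from AAV and AM from DiI libraries. Exon lengths came from GENCODE annotation of mm10. On simulated data with known changes, the LP against LGd contrast recovered 7 of 100 genes changed 2-fold and 24 of 100 changed 4-fold (16527 genes). The comparison of classes recovered 34 and 75 of 100 (15303 genes). Changes of 2-fold are thus often missed in both, and in LP against LGd most changes of 4-fold were missed as well.

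Alternatives were DESeq2 1.42.0, RLE size factors in edgeR, the unfiltered table, date as a term, replicate number as a block, the compared groups alone, CM from DiI libraries, and each library or nucleus left out. Shared dates, shared animals, single dates and the omission of VA replicate 3 were chosen after seeing the data.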

Additional observations from a re-analysis of the deposited data

Results flagged for a closer look

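In groups of 4 to 10 libraries, the highest or lowest library was compared with its group by Dixon's ratio of gap to range, for the summed CPM of the 77 genes and for Cox6a2, Ndufv3 and Ndufa2. Of 80 tests 15 passed the 95% critical value, and chance passes about 1 in 20. A library far from the others of its group was the reason in each case.

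The summed level of VA replicate 3 was 25352 CPM, with the next VA library at 14283, and its Ndufv3 was 279.5 CPM, with the next at 77.02. Results with and without this library stand in the report.

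Cox6a2 stood apart in AD replicate 3 at 4.56 CPM (next 0.414), AM by DiI replicate 2 at 38.0 (next 24.3), LD replicate 4 at 46.4 (next 15.6) and VM replicate 1 at 8.24 (next 0.934). LGd replicate 5 was low for Cox6a2, at 5.81 CPM (next 16.0).

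Ndufv3 stood apart in AV replicate 6 at 126.2 CPM (next 53.8) and RE replicate 3 at 49.9 (next 29.9). Ndufa2 stood apart in 6 groups: AD replicate 1 at 30.3 CPM (next 10.7), IMD replicate 2 at 174.3 (next 77.2), LD replicate 2 at 87.8 (next 22.8), LP replicate 1 at 30.3 (next 16.6), MD replicate 1 at 51.7 (next 15.1) and PF replicate 2 at 80.4 (next 55.3). The overlap of Ndufa2 with Tmco6 on the other strand was not tested as a source of these values.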

How the results depend on the processing

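Counts of called members differed between fits that handled amplification date in different ways. Several of these fits also used fewer libraries or only some of the nuclei, and the parts of date and of that choice cannot be told apart. Over the 22 nuclei 72 members were called, and 18 in the test with date as a term, which covers only nuclei linked by shared dates. With date as a term those lower in PO went to 0 (0.278% of all genes) and in VM to 1 (0.46%), and those higher in AD to 4 (2.15%). In LP, Ndufa4, Cox5a, Ndufa12 and Atp5b were the members lower with date as a term. The log2 differences were then -0.71 for Atp5b in PO, and -0.54 for Ndufa4 and -0.81 for Cox7b in VM. On the shared date alone LP had 1 higher and 5 lower than LGd, PO 0 lower, VM 1 lower and AD 0 higher and 0 lower. In shared animals VM had 1 lower and AD 2 higher and 0 lower. Between the classes, higher and lower calls were 27 and 1 over all dates, 56 and 2 in the fit of all libraries (16% and 16.7% of all genes), 20 and 0 with CM from DiI libraries (7.64% and 8.68%), 0 and 2 within the 2 shared dates, and 0 and 1 there without VA replicate 3. Within those dates the log2 differences, positive over all dates, were -0.20 for Atp5e, -0.47 for Uqcr11, -0.051 for Ndufa2, -0.21 for Ndufb7, -0.21 for Uqcrq, -0.68 for Ndufa1 and -0.10 for Sdhb. Without VA replicate 3 as well, they were -0.089 for Atp5e, -0.28 for Uqcr11, -0.19 for Uqcrq, -0.60 for Ndufa1 and -0.042 for Sdhb, and positive for Ndufa2 and Ndufb7. Without VA replicate 3, the calls over the 22 nuclei were 70, and calls of single nuclei 154 higher and 158 lower.

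DESeq2 called 1 higher and 9 lower in LP (5.22% and 1.8% of all genes), 5 lower in PO (2.01%), and 3 higher and 2 lower in AD (3.37% and 7.72%). Fits of the compared groups alone called 1 higher in LP (3.25%), 0 lower in PO (1.11%), 10 lower in VM (1.09%), 0 lower in AD (2.08%), and 17 higher and 1 lower in PVT (4.11% and 3.25%). In those fits Ndufa10, Atp5c1, Ndufa4 and Atp5b were the members lower in LP, and Ndufa10 was still higher in AD. With replicate number as a block, the calls were 1 higher and 1 lower in LP (2.36% and 1.54%), 0 lower in PO (0.68%), 7 lower in VM (1.09%), 0 lower in AD (1.33%), and 12 higher and 1 lower in PVT (2.81% and 2.68%). Deviations of libraries with the same number had correlations from -0.05 to 0.07. The number matched the animal in 3 of 6 same-number pairs of VM and VL and in 2 of 4 of AD and AV. It matched in none of the other comparisons, so it pairs libraries by animal only in part. Leaving out each library gave 0 to 4 lower in LP, 1 to 3 in PO, 1 to 3 in VM, and 1 to 2 higher and 0 to 1 lower in AD. Leaving out each nucleus, or VA replicate 3, gave 13 to 41 higher and 0 to 1 lower between the classes, with 13 without IMD or without PVT and 41 without VA. The causes were not tested. Low genes such as Cox7a1 and Cox6b2 had no count in many libraries, and whether depth set this was not tested.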
